A study of Mus musculus with 16 samples.

Results

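Retained-intron transcripts are RNAs of a known gene that keep all or part of a sequence that other transcripts of the same gene splice out. They were taken as every row of the deposited mouse transcript tables whose GENCODE transcript type is retained_intron, so the annotation chose them and no measured value did. They numbered 21946 of the 142435 transcripts in each table, beside 58010 protein_coding and 7199 nonsense_mediated_decay transcripts. They came from 9456 genes, of which 9151 also had a protein_coding transcript, and a gene had a median of 2 and at most 20 of them.

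The study compared RNA from 2 regions of the same organ, the frontal cortex (FC) and the cerebellum (Cere), between Upf3b-KO and control (Ctrl) mice, to ask which RNAs depend on UPF3B in each region. UPF3B is an adaptor protein of nonsense-mediated RNA decay (NMD), and the study describes the mice as adult Upf3b-null animals and their littermate controls. There were 4 groups, FC Ctrl, FC Upf3b-KO, Cere Ctrl and Cere Upf3b-KO, with 4 libraries each. No cell type was separated before RNA was taken, and neither strain nor sex is given in the sources used here.

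The 15 libraries used held between 27660078 and 35238677 estimated counts. Cere Upf3b-KO library 1 held 64981 and was left out of each comparison below unless it is named. Summed Upf3b expression was 14.2 to 15.7 counts per 1000000 counts (CPM) in FC Ctrl and 0.229 to 0.857 in FC Upf3b-KO, and 20.9 to 23.6 against 0.617 to 0.965 in cerebellum. Upf3b itself has no retained-intron transcript. Markers of other tissues moved with genotype: 6 choroid plexus genes summed to 20.4 to 21.6 CPM in FC Ctrl and 2146 to 2199 in FC Upf3b-KO, and to 31.3 to 35.6 against 1370 to 1391 in cerebellum, with no marker at 0 in any group. In FC, 6 striatum genes went from 136 to 145 in Ctrl to 706 to 717 CPM in Upf3b-KO, and 12 male germ cell genes from 36.0 to 38.9 to 230 to 237, against 365 to 378 and 314 to 324 for striatum and 31.9 to 33.8 and 35.7 to 36.5 for germ cells in cerebellum. The 6 cerebellum markers fell in sum from 4260 to 4348 in Cere Ctrl to 1825 to 1841 in Cere Upf3b-KO, and lay at 234 to 246 in the FC libraries, while 6 frontal cortex markers were at 1544 to 1605 in FC Ctrl, 1444 to 1454 in FC Upf3b-KO, 480 to 500.3 in Cere Ctrl and 310 to 319 in Cere Upf3b-KO. Their part in the results was not tested. In bulk tissue, fewer cells of a type and less RNA per cell cannot be told apart.

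An intron left in an RNA can hold a stop codon in the reading frame of the exon before it. When such a stop lies well upstream of an exon junction, the exon junction complex left there, which UPF3B bridges to the decay machinery, can mark the RNA for NMD. Other RNAs with retained introns stay in the nucleus, where cytoplasmic decay does not reach them, and SR proteins are known to keep their own levels in check through such introns.

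As a class, retained-intron transcripts were short. Their median length was 889 nucleotides (nt) against 2158 for protein_coding transcripts, with a median of 3 against 6 exons, and 2342 had a single exon. A whole intron of a protein_coding transcript was kept in 6980 of them (31.8%), and 14014 (63.9%) held only part of an intron, such as a transcript that starts or ends inside it. The 8535 introns kept whole had a median length of 250 nt, against 1677 for the 311848 other introns of protein_coding transcripts. They held 50.9% G and C against 45.2%, and 20.3% against 3.77% of them were shorter than 100 nt. Their splice sites did not stand apart in the letters checked: 98.6% began with GT and ended with AG, against 98.7%, and 49.7% against 51.8% began with GTAAG or GTGAG.

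Reading each transcript from an annotated start codon of its gene sorted the class further. No annotated start codon lay in 13100 of them. In 2199 the first in-frame stop was followed by an exon junction 50 nt or more further on, the downstream exon junction (dEJ) that the study used as a mark of candidate NMD targets, and in 1662 of these the stop lay inside the retained intron itself. In 6150 a stop was reached with no dEJ.

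The stops below, read from GRCm39 and written 5′ to 3′ with the stop codon in capitals, are those of the transcripts with a dEJ on which the comparisons turn most. They are shown because each is met in the intron before the next exon is reached. The intron of Hax1-209, of 124 nt, lies wholly within exons of other protein_coding transcripts of that gene.
Wdr83-202 and Wdr83-204: catattagcccgTAGgtggtacgagga
Ptpn5-209: gaggttgagggaTGAagacctttctga
Fam98c-206: gtgtggggaccaTAAcaagaataagca
Hapln2-203: agaacactggggTAGgggaccaaggga
Hax1-209: tctcctggtgtgTGAatttccctgagg
Stard3nl-206: ttccctcccatgTGAgctgagtactgg
Ccdc59-202: aacacaggaaggTAAgcacctccgtct
The Wdr83 stop follows 130 codons and lies 687 nt before the last junction of Wdr83-202, in an intron of 246 nt at chr8:85806503-85806748 on the minus strand. The Ptpn5 stop follows 107 codons in an intron of 542 nt at chr7:46740583-46741124, minus strand, and lies 1750 nt before the last junction. In Fam98c the stop follows 245 codons in an intron of 929 nt at chr7:28852915-28853843, minus strand. The Ccdc59 stop begins on the 2nd base of its intron of 2501 nt, at chr10:105678710-105681210, plus strand.

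The ends of the introns of 2 further genes, Srsf2 and Gria2, are given with intron bases in capitals and flanking exon bases in lower case, since these genes were called in cerebellum without a dEJ. For Srsf2, on the minus strand, the introns lie at chr11:116741788-116742473 (686 nt) and chr11:116742578-116742846 (269 nt), and for Gria2, also on the minus strand, at chr3:80614566-80615005 (440 nt).
Srsf2 intron of 686 nt, start: cagGTTTGT
Srsf2 intron of 686 nt, end: CTCTTTCTTTTCAAACCTAGatg
Srsf2 intron of 269 nt, start: atgGTAATG
Srsf2 intron of 269 nt, end: TGCATTTTCCCCCTTTAAAGctg
Gria2 intron, start: gggGTAAGT
Gria2 intron, end: TTTTCTTTCTTCCCTTACAGaaa

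Together the retained-intron transcripts took a small part of each library: 1.65% of all counts in FC Ctrl, 1.69% in FC Upf3b-KO, 1.82% in Cere Ctrl and 1.72% in Cere Upf3b-KO (means of 4, 4, 4 and 3 libraries). A few carried much of it, since the 20 most abundant held 16.3% of the class's counts in FC Ctrl and 15.5% in Cere Ctrl. In FC Ctrl 2345 of the 21946 averaged at least 1 CPM and 11 reached 100 CPM, against 2844 and 18 in Cere Ctrl, and 1373 had no count in any library.

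Among the transcripts with high levels per kilobase was Atp5pf-208, from a gene for a subunit of the mitochondrial ATP synthase, at 361 CPM per kb in FC Ctrl and 393 in Cere Ctrl. Below it in FC Ctrl came Uchl1-202 (a neuronal ubiquitin hydrolase) at 206, Atp6v1d-202 (a subunit of the vacuolar proton pump) at 146, Ctsb-202 (the lysosomal protease cathepsin B) at 131 and Apod-201 (apolipoprotein D) at 121 CPM per kb. Such rows can hold little sequence of their own: Uchl1-202 has 52 bases that no protein_coding transcript of the gene has, so its level rests on how reads were divided among overlapping transcripts.

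The share of retained-intron counts was then set against protein_coding counts over the 9151 genes that have both. It was 2.92% in FC Ctrl (SD 0.00237, n = 4) with libraries from 2.91 to 2.92%, and 2.98% in FC Upf3b-KO (SD 0.0192, n = 4) with libraries from 2.96 to 3.0%. The Upf3b-KO share was higher by 0.0590 percentage points and the libraries of the 2 genotypes did not overlap. In cerebellum the order was the other way round: 3.11% in Ctrl (SD 0.0316, n = 4; 3.06 to 3.14%) and 2.96% in Upf3b-KO (SD 0.0193, n = 3; 2.95 to 2.98%), a difference of -0.144 points, again without overlap. Ctrl cerebellum lay above Ctrl FC by 0.189 points without overlap, whereas the Upf3b-KO libraries of the 2 regions overlapped, with a difference of -0.0141 points. No p is given for these sums. The FC direction depended on how genes were weighted, since the median of the shares of single genes fell by 0.102 points there, while the cerebellum median fell by 0.229 points.

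**Figure D1:**
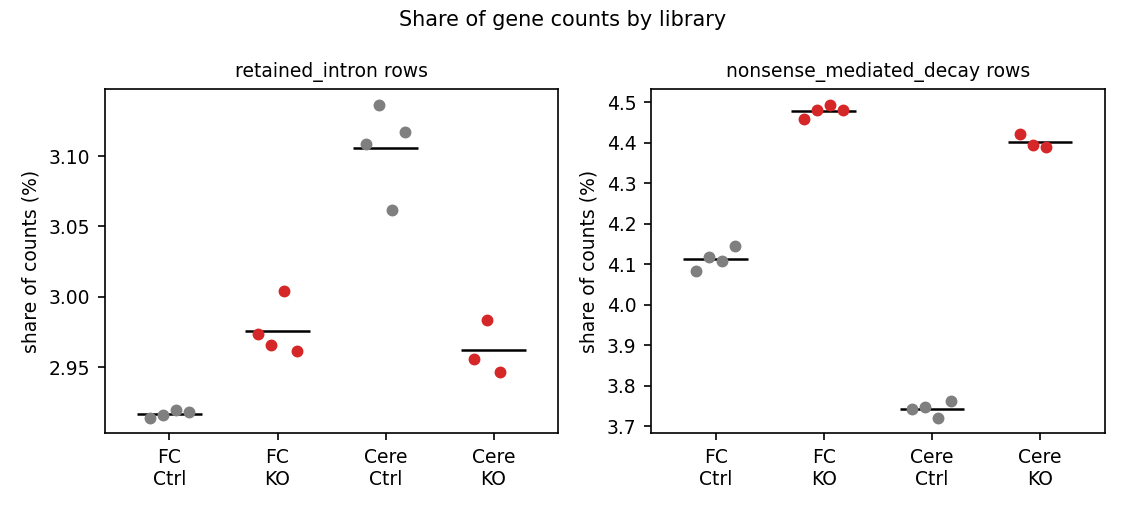
Retained-intron counts as a percent of retained-intron plus protein_coding counts (y axis, percent) in each library of the 4 groups, with a line at the group mean, beside the same share for nonsense_mediated_decay transcripts. Neither y axis starts at 0. The retained-intron share rises from 2.92 to 2.98% in FC and goes from 3.11 to 2.96% in cerebellum, while the nonsense_mediated_decay share is higher in Upf3b-KO in both regions.

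Transcripts annotated as nonsense_mediated_decay gave a contrast within the same libraries. Their share against protein_coding counts was 4.11% in FC Ctrl and 4.48% in FC Upf3b-KO, and 3.74% against 4.40% in cerebellum, with no overlap between genotypes in either region. The log2 ratio of retained-intron to nonsense_mediated_decay counts was therefore lower in Upf3b-KO in both regions, -0.61 against -0.51 in FC and -0.59 against -0.28 in cerebellum. A summed level of 6 nuclear-retained RNAs also moved with genotype, from 826 to 841 CPM in FC Ctrl to 792 to 809 in FC Upf3b-KO, and from 839 to 853 to 708 to 721 in cerebellum. Its part in the shares was not tested.

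The sums were then split by gene. In FC, Ppp1r1b added 0.0214 points to the share, Ptpn5 0.00706 and Enpp2 0.00630, while Itm2b changed it by -0.0101 and Tmed10 by -0.00923. In cerebellum, Uchl1 added 0.0234 and Apod 0.0104 points, against -0.0168 for Itm2b and -0.0106 for Ppp1r1b. Without the 5 genes that moved it most, left out after seeing the data, the difference was 0.0581 points in FC and -0.163 in cerebellum. For a single gene the share was usually low: the median over genes with at least 50 counts in each library was 1.17% in FC Ctrl (7397 genes) and 1.38% in Cere Ctrl (7237 genes), and over 50% of counts fell on retained-intron transcripts in 147 and 150 genes.

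Differential expression in FC called few of these transcripts. Of 5574 that passed the filter on low counts, 43 were upregulated and 20 downregulated in Upf3b-KO (1.13%; edgeR's quasi-likelihood test, Benjamini-Hochberg adjusted p under 0.01 and more than 2-fold). Over all 42318 transcripts tested, 3.22% were called, 2.76% up and 0.463% down. Retained-intron transcripts had a median log2 fold change of -0.08, against 0.01 over all transcripts and 0.28 for the nonsense_mediated_decay type. The lean to upregulation depended on the test: DESeq2 called 104 up and 120 down, and without a fold limit an adjusted p under 0.05 gave 127 up and 158 down, whereas 29 were up and 4 down without the filter on low counts and 16 up and 1 down with the replicate block. Leaving out a library gave 34 to 43 calls, with 41 without Ctrl library 2, 3 or 4 and 39, 37 and 34 without Upf3b-KO library 1, 2 and 3. The downregulated calls depended most on single libraries: the 20 became 6, 6, 5 and 7 without Ctrl library 1, 2, 3 and 4, and 13, 12, 7 and 14 without Upf3b-KO library 1, 2, 3 and 4.

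The upregulated FC transcripts split by what the rest of their gene did. For 39 of the 43 the summed protein_coding counts of the gene could be tested, and these were called upregulated as well for 13 and not called for 26. Wdr83, which encodes a WD-repeat scaffold protein, is of the second kind. Wdr83-202 was at 3.28, 3.12, 2.96 and 3.29 CPM in the 4 FC Ctrl libraries and at 15.3, 17.2, 15.2 and 14.1 CPM in FC Upf3b-KO. All Upf3b-KO libraries lay above all Ctrl libraries, as they did for each of the 43 upregulated transcripts. The log2 fold change of Wdr83-202 was 2.23 ± 0.10 (SE, adjusted p = 3.68e-06). Wdr83-204, which shares the stop shown above and keeps a 2nd intron, went from 1.38, 1.58, 1.06 and 0.826 CPM to 14.1, 13.2, 13.9 and 16.3 CPM, with a log2 fold change of 3.50 ± 0.21 (adjusted p = 2.00e-05). The protein_coding counts of Wdr83 had a log2 fold change of 0.00. Wdr83 runs against Dhps on the opposite strand, and since the strand setting of the counting is not stated, reads of the 2 genes cannot be told apart where they overlap.

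Ptpn5, a tyrosine phosphatase enriched in the striatum, showed the same contrast. Ptpn5-209 was at 5.67, 3.58, 2.87 and 4.76 CPM in FC Ctrl and at 40.7, 51.7, 35.3 and 45.2 CPM in FC Upf3b-KO, and no library of one genotype reached the other. Its log2 fold change was 3.29 ± 0.23 (adjusted p = 4.16e-05) against 0.06 for the protein_coding counts. The transcript was near 0 in cerebellum, at most 0.243 CPM in Ctrl and 1.5 in Upf3b-KO. Fam98c-206 went from 6.57, 6.87, 6.94 and 6.36 CPM to 16.1, 15.9, 16.3 and 17.3 CPM, a log2 fold change of 1.23 ± 0.07 (adjusted p = 1.57e-05), with protein_coding counts at -0.35. It overlaps Rasgrp4 on the opposite strand. All 4 of these transcripts have a dEJ.

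For other upregulated transcripts the whole gene moved. Ppp1r1b-202, from the gene for the dopamine-regulated phosphatase inhibitor DARPP-32, was at 37.3, 36.3, 39.2 and 32.7 CPM in FC Ctrl and at 156, 154, 159 and 156 CPM in FC Upf3b-KO (log2 2.04 ± 0.05, adjusted p = 2.09e-07), and the protein_coding counts had a log2 fold change of 2.11. Ppp1r1b is one of the striatum markers given above, and only 30 bases of the transcript are intronic. Enpp2-207, from the gene for the phospholipase autotaxin, went from 3.08, 4.35, 3.23 and 3.84 CPM to 38.5, 39.2, 39.1 and 37.1 CPM (log2 3.34 ± 0.11, adjusted p = 8.33e-07), with protein_coding counts at 3.65. Prlr-201, from the prolactin receptor gene, was at 0.384 to 1.01 CPM in FC Ctrl and at 13.5 to 16.5 CPM in FC Upf3b-KO (log2 4.50 ± 0.33, adjusted p = 5.56e-05), with protein_coding counts at 4.49. Prlr-201 has a dEJ too, and Gm21973 overlaps it on the same strand. Enpp2 and Prlr are both known for high expression in choroid plexus, whose markers moved with genotype in the same libraries. Kcnab3-203, from a gene for a potassium channel beta subunit, went from 6.72 to 9.42 CPM to 23.9 to 32.3 CPM (log2 1.78 ± 0.14, adjusted p = 7.05e-05), with protein_coding counts at 1.12. It overlaps Kcnab3os on the opposite strand.

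Of the 20 downregulated FC transcripts 17 hold part of an intron and 3 keep a whole intron, beside 2738 and 2559 of the 5574 tested, a split that rests on calls many of which were lost without 1 Ctrl library. For 18 of the 20 the protein_coding counts were not called. Tmed10-202, from a gene for a cargo receptor of the early secretory pathway, had the smallest adjusted p. It was at 86.5, 81.3, 84.7 and 85.2 CPM in FC Ctrl and at 33.3, 29.9, 34.2 and 35.5 CPM in FC Upf3b-KO, without overlap (log2 -1.41 ± 0.05, adjusted p = 1.49e-06). The protein_coding counts of Tmed10 had a log2 fold change of 0.16, and just 8 of the 3181 bases of Tmed10-202 are intronic. Uggt2-208, from a gene for a glycoprotein folding sensor of the endoplasmic reticulum, was at 2.20, 2.18, 2.91 and 2.53 CPM in FC Ctrl and at 0 in all 4 Upf3b-KO libraries, at least 24.8-fold lower against a floor of 3 counts per library (adjusted p = 0.00023). Slc9a7-203, from a gene for a sodium/proton exchanger, was at 0.388 to 0.660 CPM in Ctrl and at 0 in Upf3b-KO, at least 4.71-fold lower (adjusted p = 0.00359).

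Ppdpf-204 went from 6.86, 4.81, 6.79 and 5.02 CPM to 1.76, 2.08, 1.54 and 1.61 CPM (log2 -1.81 ± 0.20, adjusted p = 0.000521), and the protein_coding counts had a log2 fold change of -0.89. Tcf4-241, from the gene for a basic helix-loop-helix transcription factor, averaged 4.82 CPM in FC Ctrl and 2.30 in Upf3b-KO (log2 -1.12 ± 0.17, adjusted p = 0.00298). St13-207, from a gene for an Hsp70 cochaperone, averaged 0.986 and 0.220 CPM (log2 -2.21 ± 0.33, adjusted p = 0.00273), and Mast4-210, from a kinase gene, 1.2 and 0.364 CPM (log2 -1.78 ± 0.28, adjusted p = 0.00303). Ptger3-203, from the gene for a prostaglandin E2 receptor, was at 4.73, 5.23, 5.15 and 3.89 CPM in Ctrl and at 2.49, 2.32, 2.29 and 2.55 CPM in Upf3b-KO (log2 -1.04 ± 0.16, adjusted p = 0.00291). The calls of Slc9a7, St13, Tcf4, Mast4 and Ptger3 were lost when any of several single libraries was left out, with log2 values that stayed between -1.0 and -2.21 for the last 4. For Mast4 these were Ctrl library 1, 2 or 3 or any Upf3b-KO library, for Ptger3 Ctrl library 1, 2 or 3 or Upf3b-KO library 1, 2 or 3, for Slc9a7 any Ctrl library, for St13 Ctrl library 1, 3 or 4 or Upf3b-KO library 3 or 4, and for Tcf4 Ctrl library 3 or 4 or Upf3b-KO library 2, 3 or 4.

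In cerebellum more retained-intron transcripts were called than in FC. Of 6797 tested, 58 were upregulated and 87 downregulated in Upf3b-KO (2.13%), against 4.76% of all 44388 transcripts tested, 3.45% up and 1.31% down. The class had a median of -0.27 on the log2 scale, against 0.01 over all transcripts and 0.24 for the nonsense_mediated_decay type, and 35.7% of the class lay above 0 against 50.6% of all transcripts. DESeq2 called 140 up and 401 down. Leaving out any 1 of the 7 libraries gave 68 to 92 calls, 68 without Upf3b-KO library 2 or 3, 76 without Upf3b-KO library 4, and 91, 88, 92 and 87 without Ctrl library 1, 2, 3 and 4. The lean to downregulation was lost or small in some of these fits, with 47 up and 44 down without Ctrl library 1, 43 and 45 without Ctrl library 2, 43 and 49 without Ctrl library 3, 40 and 47 without Ctrl library 4, and 39 and 40 without the filter on low counts. With the replicate block it turned, with 8 up and 4 down. Without Upf3b-KO library 2, 3 or 4 the counts were 29 up and 39 down, 28 and 40, and 26 and 50.

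Among the upregulated cerebellar transcripts the protein_coding counts were called in the same direction for 24 of the 53 that could be tested, and their median log2 fold change was 0.90. Uchl1-202 stood at 38.0, 36.2, 33.3 and 37.1 CPM in Cere Ctrl and at 169, 173 and 166 CPM in the 3 Cere Upf3b-KO libraries (log2 2.23 ± 0.05, adjusted p = 2.66e-07), with protein_coding counts at 2.05. The FC libraries were at 196 to 210 CPM in Ctrl and 188 to 191 CPM in Upf3b-KO, so the cerebellar Upf3b-KO libraries lay nearer to the FC range than to Cere Ctrl. The cerebellum markers fell in those same Upf3b-KO libraries. Qdpr-210, from a gene of tetrahydrobiopterin recycling, went from 31.2 to 35.6 CPM to 74.3 to 90.1 CPM (log2 1.31 ± 0.07, adjusted p = 2.51e-05), with protein_coding counts at 1.19.

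Hapln2-203, from the gene for a link protein of the perinodal matrix, keeps an intron of 172 nt with the stop shown above. It was at 13.5, 13.0, 13.3 and 12.5 CPM in Cere Ctrl and at 28.8, 29.7 and 32.3 CPM in Upf3b-KO (log2 1.21 ± 0.06, adjusted p = 1.90e-05), and its protein_coding counts had a log2 fold change of 1.17. In FC it was at 7.56 to 9.16 and at 14.5 to 18 CPM (log2 0.95 ± 0.11, adjusted p = 0.000638), under the 2-fold limit. Gpc5-204, from a glypican gene, was at 0.432 to 0.665 CPM in Cere Ctrl and at 5.70 to 6.55 CPM in Upf3b-KO (log2 3.38 ± 0.22, adjusted p = 4.85e-05), against 0.07 in FC.

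Srsf2, the gene for an SR splicing factor known to limit its own expression through alternative 3′ untranslated splicing, had a retained-intron transcript that moved against its gene. Srsf2-203 was at 4.35, 4.17, 4.38 and 3.48 CPM in Cere Ctrl and at 13.6, 13.6 and 14.2 CPM in Cere Upf3b-KO (log2 1.75 ± 0.12, adjusted p = 6.88e-05). In FC it was at 2.01, 2.68, 2.5 and 2.36 CPM in Ctrl and at 7.85, 8.33, 8.64 and 8.25 CPM in Upf3b-KO (log2 1.73 ± 0.13, adjusted p = 7.45e-05). The genotypes did not overlap in either region. The protein_coding counts of Srsf2 moved the other way, with log2 fold changes of -0.59 in cerebellum and -0.76 in FC. No base of Srsf2-203 is outside the exons of all protein_coding transcripts of the gene, so it was told from them by how the counting divided the reads, and Mettl23 overlaps it on the opposite strand.

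For most downregulated cerebellar transcripts the protein_coding counts of the gene were not called. This held for 76 of the 86 with testable protein_coding counts, which were called down for 8 and up for 2 and had a median log2 fold change of -0.32. Itm2b-202, from the gene for the membrane protein BRI2, was at 136, 95.8, 95.7 and 129 CPM in Cere Ctrl and at 19.4, 18.7 and 12.2 CPM in Upf3b-KO (log2 -2.77 ± 0.22, adjusted p = 0.000131). In FC it was at 86.9, 81.9, 83.7 and 83.7 CPM in Ctrl and at 13.0, 28.5, 35.5 and 33.9 CPM in Upf3b-KO (log2 -1.66 ± 0.27, adjusted p = 0.00411). It fell in both regions, beside protein_coding log2 fold changes of -0.77 and -0.33. Tmed10-202 fell in cerebellum as in FC, from 76.5, 71.2, 73.4 and 73.0 CPM to 30.1, 28.8 and 27.4 CPM (log2 -1.36 ± 0.04, adjusted p = 1.63e-06), with protein_coding counts at 0.61.

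Gria2-204, from the gene for the GluA2 subunit of AMPA glutamate receptors, was at 24.2, 28.3, 27.1 and 28.1 CPM in Cere Ctrl and at 12.6, 11 and 11.1 CPM in Upf3b-KO (log2 -1.22 ± 0.09, adjusted p = 8.04e-05), with protein_coding counts at -0.58. Gas7-208, from the growth arrest gene Gas7, went from 24.6 to 28.3 CPM to 7.02 to 9.29 CPM (log2 -1.76 ± 0.11, adjusted p = 4.83e-05), and here the protein_coding counts moved equally, at -1.77. Il22b-202 went from 42.7 to 46.5 CPM to 16.2 to 19 CPM (log2 -1.32 ± 0.06, adjusted p = 1.22e-05) and was almost absent from FC Ctrl, at a mean of 0.106 CPM. Arhgef33-208 went from 13.3 to 15.1 CPM to 6.35 to 6.72 CPM (log2 -1.12 ± 0.09, adjusted p = 0.000143). Frmpd3-201 moved against its gene: it went from 17.3 to 19.2 CPM to 8.77 to 9.18 CPM (log2 -1.02 ± 0.08, adjusted p = 9.39e-05) while protein_coding counts rose, by 3.28 on the log2 scale. Its fold fell under 2 without Ctrl library 4 or Upf3b-KO library 2, at a log2 value of -0.99 each.

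**Figure D2:**
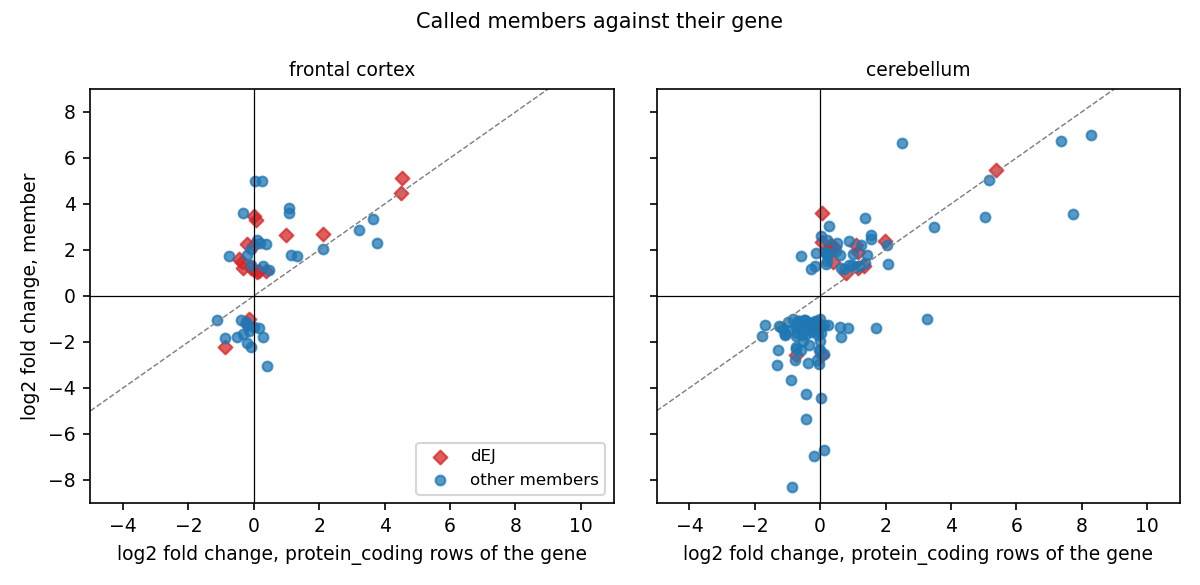
Log2 fold change of each called retained-intron transcript (y axis) against that of the summed protein_coding counts of its gene (x axis), Upf3b-KO against Ctrl, for FC and cerebellum, with neither group at 0; red diamonds have a dEJ, blue circles do not, and the dashed line marks equal change. Points near the line, such as Enpp2 in both regions, moved with their gene, while Wdr83 and Ptpn5 in FC sit near 0 on the x axis.

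Of 5018 retained-intron transcripts tested in both regions, 30 were upregulated in FC and 55 in cerebellum. Both held for 14, which is 46.7% of the FC calls and 25.5% of the cerebellar calls. Downregulation was called for 18 in FC, 62 in cerebellum and 8 in both (44.4% and 12.9%). Over all 38042 transcripts tested in both regions, 265 were upregulated in both, 37.7% of the FC and 18.7% of the cerebellar calls, and 67 were downregulated in both, 38.7% and 14.8%. The difference between the class and all transcripts was not tested. A single transcript, Ptger3-203, was called in opposite directions. The transcripts named next were chosen because they were called in both regions, after their values were seen.

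Of the 14 shared upregulated transcripts 9 keep a whole intron, as did 2559 of the 5574 tested in FC and 3048 of the 6797 tested in cerebellum, and 5 had a dEJ, as did 1096 and 1221 of those tested. Among the 9 are Hax1-209 and Srsf2-203, whose kept introns are exon sequence in other protein_coding transcripts of the gene. The 14 included both Wdr83 rows, which in cerebellum went from 2.16 to 4.46 CPM to 16.0 to 17.2 CPM for Wdr83-202 (log2 2.36 ± 0.28, adjusted p = 0.000904) and from 0.555 to 1.54 CPM to 12.8 to 14.2 CPM for Wdr83-204 (log2 3.6 ± 0.32, adjusted p = 0.000238). Dhps-206 and Dhps-202, from the adjoining gene on the opposite strand, were called up in both regions too, at log2 1.33 and 2.03 in FC and 1.88 and 1.80 in cerebellum. Dhps-202 ends at chr8:85799491, outside both Wdr83 transcripts, whose lower end is at chr8:85801664. Dhps-206 ends at chr8:85801780 and overlaps only their edge, away from the intron with the stop. Dhps encodes deoxyhypusine synthase, which modifies the translation factor eIF5A.

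Exosc5-202, from a gene for a subunit of the RNA exosome, was at 4.09, 4.0, 4.83 and 4.34 CPM in FC Ctrl and at 10.1, 9.05, 10.1 and 10.3 CPM in FC Upf3b-KO. In cerebellum it was at 3.42, 3.21, 2.80 and 4.07 against 9.36, 8.96 and 11 CPM, so that no library of one genotype reached the other in either region (log2 1.13 ± 0.11 and 1.53 ± 0.17, adjusted p = 0.000272 and 0.00072). Hax1-209, from a gene for a mitochondrial survival factor, was at 2.11 to 3.71 against 5.39 to 6.67 CPM in FC and at 2.06 to 2.92 against 5.81 to 8.38 CPM in cerebellum (log2 1.14 and 1.46). Stard3nl-206, from a gene for a protein of endosome contact sites, was at 2.23 to 2.68 against 5.59 to 8.77 CPM in FC and at 0.840 to 2.63 against 7.24 to 9.07 CPM in cerebellum (log2 1.46 and 2.03). Ndufv1-204, from a gene for a subunit of respiratory complex I, had log2 fold changes of 1.77 and 1.90, and Ttc13-205 of 3.59 and 2.61. Kcnab3-203, Enpp2-207 and Prlr-201 were called up in cerebellum as well, at log2 1.77, 3.0 and 5.49, beside protein_coding log2 fold changes of 1.44, 3.48 and 5.39.

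The 8 shared downregulated transcripts were Tmed10-202, Itm2b-202, Ppdpf-204, Ppdpf-206, Tcf4-241, Rspry1-206, Ttc8-208 and Ccdc59-202, of which 6 hold only part of an intron. Ccdc59-202 keeps an intron of 2501 nt and has a dEJ, and still fell: it was at 3.39, 4.82, 4.39 and 3.86 CPM in FC Ctrl, at 1.46, 1.84, 2.04 and 2.06 in FC Upf3b-KO, at 4.24, 5.28, 4.68 and 4.01 in Cere Ctrl and at 1.87, 1.74 and 2.12 in Cere Upf3b-KO (log2 -1.21 ± 0.20 and -1.26 ± 0.19, adjusted p = 0.004 and 0.0032). Ppdpf-206 also has a dEJ and fell, with log2 fold changes of -2.24 ± 0.43 and -2.55 ± 0.43 (adjusted p = 0.00899 and 0.00538). Ttc8-208, from a gene for a subunit of the ciliary BBSome, was at 0.879 to 1.30 against 0.0330 to 0.229 CPM in FC and at 0.911 to 1.66 against 0.0698 to 0.206 CPM in cerebellum.

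**Figure D3:**
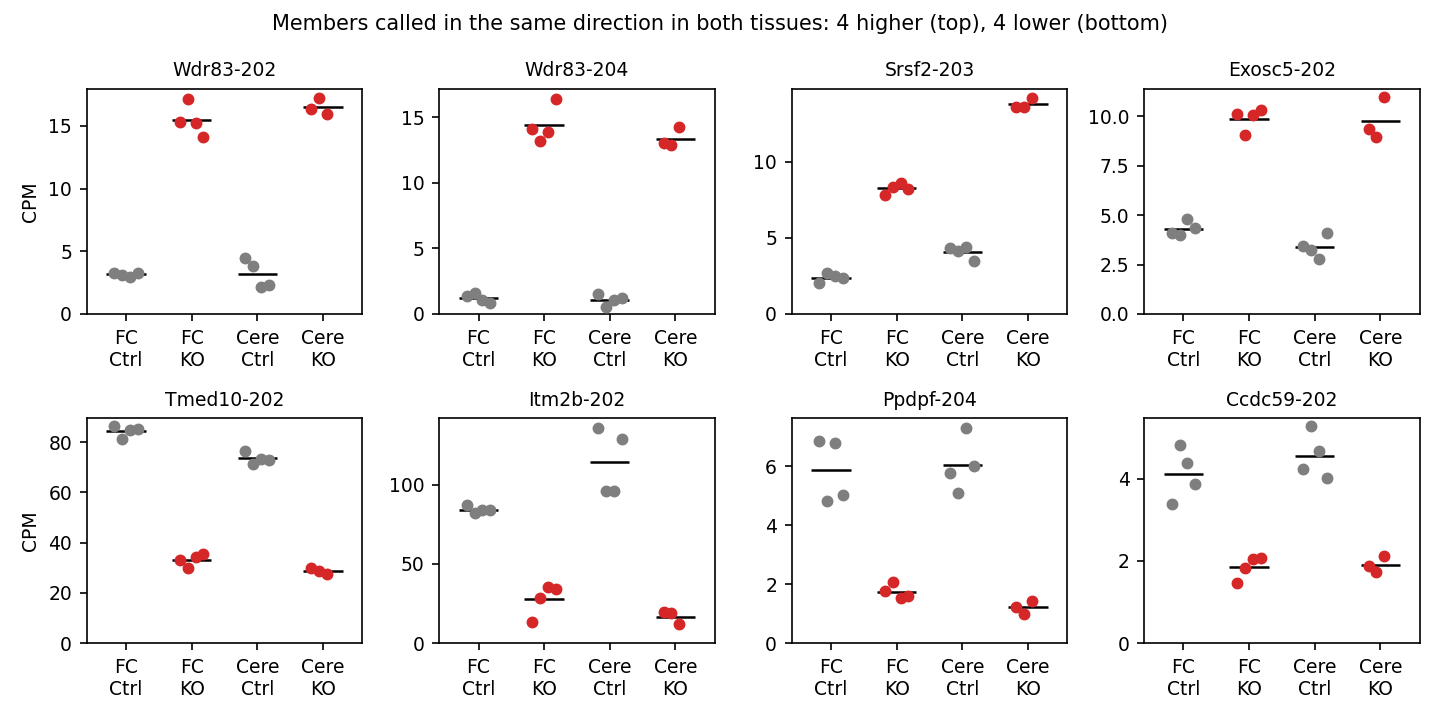
CPM (linear y axis from 0) in each library of the 4 groups for 8 retained-intron transcripts called in both regions, upregulated above (Wdr83-202, Wdr83-204, Srsf2-203, Exosc5-202) and downregulated below (Tmed10-202, Itm2b-202, Ppdpf-204, Ccdc59-202). In every panel the Upf3b-KO libraries of a region lie wholly on one side of its Ctrl libraries. This held for every retained-intron call in either region, so it adds nothing to the call. Itm2b-202 varies from 95.7 to 136 CPM in Cere Ctrl and from 13.0 to 35.5 CPM in FC Upf3b-KO.

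Members of the class were then grouped by their stop codon. In FC, log2 fold changes of the 1096 tested transcripts that have a dEJ had a median of 0.04, with 17 up against 3 down, the 1837 with a stop and no dEJ had -0.19 with 11 up and 9 down, and the 2571 with no start codon had -0.08 with 15 up and 8 down. In cerebellum the medians were -0.13 for the dEJ group (1221 tested, 14 up and 5 down), -0.41 with a stop and no dEJ (2267 tested, 17 up and 43 down) and -0.24 with no start codon (3223 tested, 27 up and 39 down). The dEJ group lay above the group without a dEJ by 0.22 in FC and 0.28 in cerebellum on the log2 scale, and both groups lay below the nonsense_mediated_decay type. Beside these counts, 2.76% of all transcripts were called up and 0.463% down in FC, and 3.45% up and 1.31% down in cerebellum. These medians and counts carry no test, and the members of one gene share reads.

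The summed levels showed the same order. Transcripts with a dEJ summed to 3685 to 3827 CPM in FC Ctrl and 4048 to 4106 in FC Upf3b-KO, without overlap, and to 4424 to 4561 and 4323 to 4476 in cerebellum, where the genotypes overlapped. Those with a stop and no dEJ summed to 4011 to 4039.9 and 3913 to 4041 CPM in FC, with overlap, and to 4969 to 5144 in Cere Ctrl and 4448 to 4475 in Cere Upf3b-KO, without overlap. Transcripts that kept a whole intron and those with part of one had medians of -0.04 and -0.13 in FC and -0.24 and -0.32 in cerebellum.

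**Figure D4:**
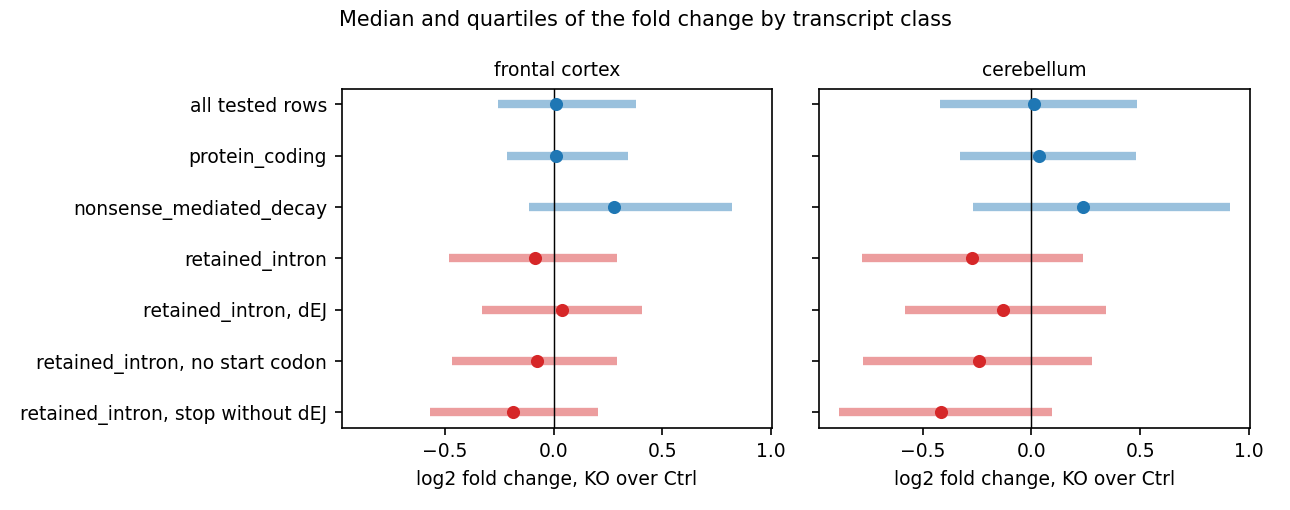
Median and quartiles of the log2 fold change (x axis), Upf3b-KO against Ctrl, for all tested transcripts, protein_coding, nonsense_mediated_decay and retained-intron transcripts, and the retained-intron class split by its stop codon, in FC and cerebellum. Retained-intron medians lie at -0.08 in FC and -0.27 in cerebellum, with the dEJ group above the group that has a stop without a dEJ in both.

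Usage, the level of a gene's retained-intron transcripts relative to its other transcripts, was tested next, so that a change of the whole gene does not count. In FC 4212 genes were tested, and usage was higher in Upf3b-KO for 28 and lower for 31 (1.40%; adjusted p under 0.05), against 1.81% over all gene and type pairs tested, 1.24% higher and 0.575% lower. In cerebellum 21 genes were higher and 67 lower of 4664 (1.89%), against 2.13%, with 1.14% higher and 0.993% lower. The median log2 relative usage was -0.09 in FC and -0.24 in cerebellum, against 0.17 in each for the nonsense_mediated_decay type, of which 102 were higher and 11 lower in FC and 99 higher and 25 lower in cerebellum. Without Cere Upf3b-KO library 2, 3 or 4 the cerebellar total was 55, 51 and 56 genes.

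Ptpn5 and Wdr83 led the genes with higher usage in FC. The Ptpn5 share of counts on retained-intron transcripts was 5.21, 3.64, 3.25 and 4.22% in FC Ctrl and 24.0, 29.1, 20.8 and 25.8% in FC Upf3b-KO (log2 relative usage 2.62 ± 0.13, adjusted p = 5.41e-09). The Wdr83 share was 50.8, 43.3, 41.5 and 37.7% in Ctrl and 81.9, 82.2, 79.8 and 81.6% in Upf3b-KO (0.91 ± 0.10, adjusted p = 2.96e-05), and in cerebellum 40.3 to 58.5% against 80.8 to 85.6%. Most Wdr83 counts thus lay on retained-intron transcripts in each Upf3b-KO library. Higher usage was also called for Eif4g1, the scaffold of translation initiation, whose shares varied widely: 0.0727 to 0.268% in FC Ctrl and 1.56 to 8.77% in FC Upf3b-KO, against 0.262 to 7.10% in Cere Ctrl and 0.121 to 2.24% in Cere Upf3b-KO. It was called too for Kcnip2, a potassium channel partner (2.5 to 8.54%), and for Ntsr2, a neurotensin receptor (10.2 to 16.6%).

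Lower usage in FC was led by Tmed10, whose share was 60.3, 57.6, 61.6 and 61.8% in Ctrl and 33.9, 32.1, 35.0 and 35.2% in Upf3b-KO (-0.82 ± 0.05, adjusted p = 2.99e-08). In cerebellum the Tmed10 share was 54.9, 52.8, 53.0 and 54.2% in Ctrl and 23.3, 23.8 and 22% in Upf3b-KO (-1.22 ± 0.04, adjusted p = 3.94e-10), again without overlap. Ark2n went from a mean of 43.1 to 10.3% in FC and from 38.3 to 5.92% in cerebellum (-2.07 ± 0.15 and -2.69 ± 0.21, adjusted p = 3.42e-07 and 3.39e-06), with a retained-intron transcript that has no intronic base of its own. Its retained-intron level averaged 5.09 and 4.34 CPM in FC and 7.33 and 4.04 CPM in cerebellum, while its protein_coding level went from 6.69 to 37.8 CPM and from 11.8 to 64.2 CPM, so the rise of the protein_coding counts carries most of the fall in share. Itm2b went from 6.97 to 2.87% in FC and from 4.52 to 1.15% in cerebellum. The share of Uggt2 went from 26.2 to 0.786%, that of the tubulin glycylase gene Ttll3 from 39.0 to 7.26% and that of the chromatin remodeller gene Chd3 from 9.93 to 6.64% in FC.

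In cerebellum the highest-ranked gene with raised usage was Srsf2, at 4.01, 3.61, 3.85 and 3.08% in Ctrl and 15.2, 16.1 and 16.5% in Upf3b-KO (2.17 ± 0.14, adjusted p = 7.88e-09). The FC shares of Srsf2 were 2.75 to 3.77% and 15.3 to 17.4%. A smaller shift was called for a 2nd SR protein gene, Srsf5, from 19.3 to 22.9% (0.24 ± 0.04, adjusted p = 0.00275), which was not called without Upf3b-KO library 3, at a log2 value of 0.21. Etv1, which encodes an ETS transcription factor, went from 33.8 to 43.4%, the phosphatase gene Ppm1a from 12.9 to 18.7%, Tmem276 from 1.80 to 13.2% and Gpc5 from 4.21 to 15.1%. Lower usage was called for the ubiquitin ligase gene Trim2 (2.99 to 1.07%), for Bcan, which encodes the matrix proteoglycan brevican (33.8 to 23.0%), and for the SNARE gene Snap25 (0.304 to 0.116%). For 3 of these genes the retained-intron level moved little or against the share, while the protein_coding level moved more. It averaged 149 and 144 CPM for Etv1 (protein_coding 293 and 188), 56.0 and 53.7 CPM for Srsf5 (235 and 181) and 52.6 and 60.4 CPM for Bcan (103 and 202). A limma test of the log ratio did not call Ntsr2, Ttll3, Chd3 and Itm2b in FC or Etv1, Ppm1a, Srsf5 and Bcan in cerebellum.

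**Figure D5:**
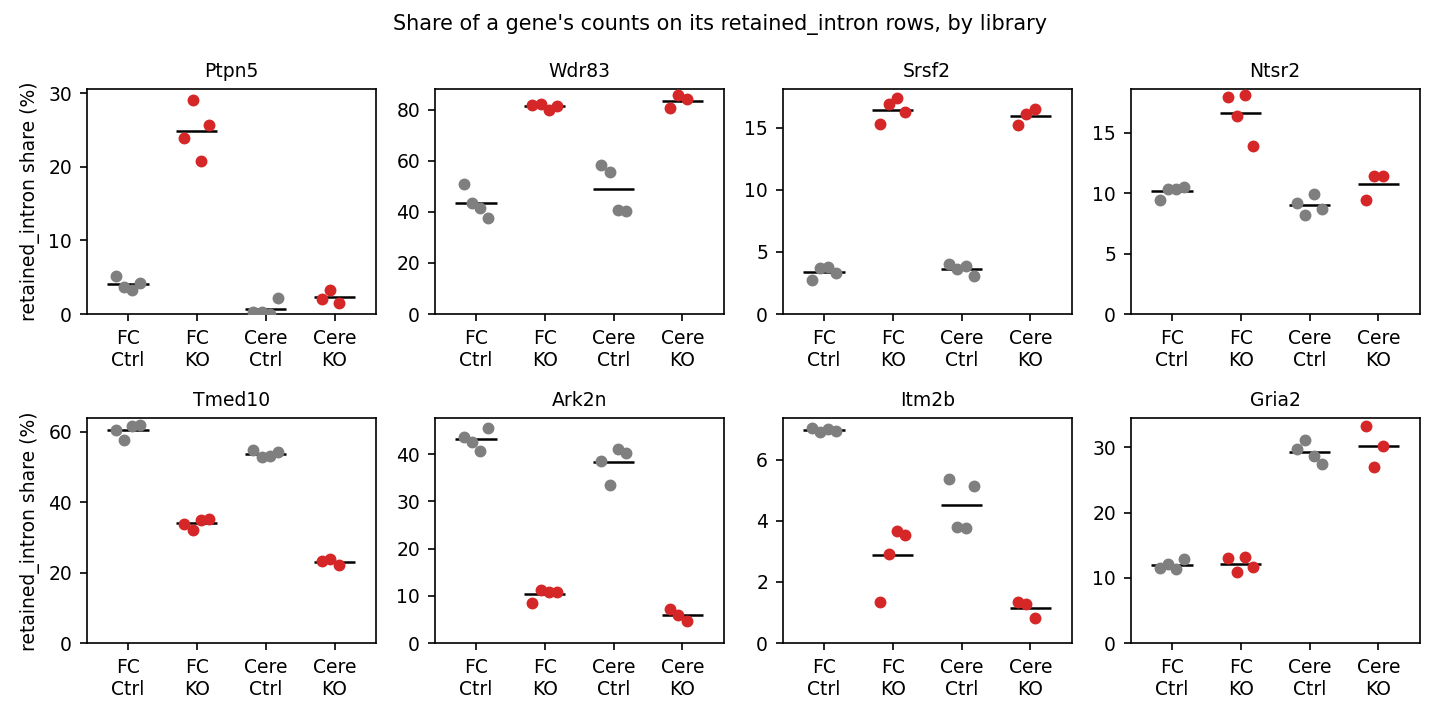
Percent of a gene's retained-intron plus protein_coding counts that lie on its retained-intron transcripts (y axis), per library, for Ptpn5, Wdr83, Srsf2, Ntsr2, Tmed10, Ark2n, Itm2b and Gria2 in the 4 groups. Wdr83 lies at 79.8% or more in each Upf3b-KO library, Tmed10 at 35.2% or less, and Gria2 differs by region more than by genotype.

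The regions were also compared in Ctrl mice, cerebellum against FC. The study describes 4 Ctrl and 4 Upf3b-null mice for both regions, so the libraries of the 2 regions share animals here and in the interaction, but the labels do not say which, and the fits treat them as separate. These libraries are also the Ctrl groups of the genotype comparisons. Of 6141 tested, 303 were higher and 223 lower in cerebellum (8.57%), against 14.9% of all transcripts, 5.99% higher and 8.95% lower. The median log2 difference was 0.23, against 0.00 over all transcripts. DESeq2 called 629 higher and 368 lower, but other fits gave an even split: 168 and 171 without the filter on low counts, and 195 and 196, 186 and 189, 197 and 196, and 202 and 192 without Cere Ctrl library 1, 2, 3 and 4. Without FC Ctrl library 1, 2, 3 and 4 the counts leaned to cerebellum, with 236 higher and 175 lower, 225 and 172, 222 and 172, and 239 and 172. With the replicate block 92 were higher and 98 lower. Usage was called higher for 179 genes and lower for 98 of 4426 (6.26%), against 4.79% over all pairs, 2.70% higher and 2.09% lower, with a median of 0.17.

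Appl2-208, from a gene for an endosomal adaptor, keeps 3 introns and has a dEJ. It was at 5.69, 5.40, 5.44 and 5.14 CPM in FC Ctrl and at 29.4, 28.4, 28.7 and 29.9 CPM in Cere Ctrl (log2 2.31 ± 0.06, adjusted p = 2.26e-08). Gm43305-201 averaged 43.7 and 122 CPM (log2 1.36 ± 0.04, adjusted p = 5.06e-08), Sphkap-201, from a gene for a kinase anchoring protein, 21.1 and 117 CPM (log2 2.35 ± 0.11, adjusted p = 6.34e-07), and Il22b-202 0.106 and 44.4 CPM (log2 8.55 ± 0.31, adjusted p = 1.46e-07). Ppp1r1b-202 was higher in cerebellum by 1.69 ± 0.06 on the log2 scale (adjusted p = 1.52e-07). For Gria2 the share rose from 12.0 to 29.3%, and for Bcan from 13.1 to 33.8%, with retained-intron levels of 78.2 and 83.3 CPM for Gria2 and 40.5 and 52.6 CPM for Bcan beside protein_coding levels of 574 and 201 and of 268 and 103 CPM.

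Syne1, which encodes the nuclear envelope protein nesprin-1, had a transcript with the opposite pattern. Syne1-207 was at 181, 179, 180 and 181 CPM in FC Ctrl and at 0 in all 4 Cere Ctrl libraries, at least 1662-fold lower against the floor of 3 counts per library (adjusted p = 2.46e-09). The Syne1 share was 65.9% in FC Ctrl and 0.645% in Cere Ctrl. Uchl1-202 was lower in cerebellum by -2.60 on the log2 scale (adjusted p = 1.60e-09). Rapgefl1-203 averaged 39.1 and 9.69 CPM (log2 -2.13 ± 0.07, adjusted p = 9.89e-08), Gfra4-208, from a GDNF family receptor gene, 32.2 and 8.28 CPM (log2 -2.07 ± 0.09), and Prkcb-208, from the gene for protein kinase C beta, 44.1 and 12.2 CPM (log2 -1.97 ± 0.09). The share of Tmem44 went from 92.8 to 35.1% and that of the ankyrin gene Ank2 from 19.9 to 12.4%.

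The interaction term asked whether the genotype effect itself differed between regions. Of 8378 retained-intron transcripts tested, 38 had a more positive and 19 a more negative effect in cerebellum (0.680%), against 2.97% of all transcripts, 2.21% and 0.757%. DESeq2 called 106 and 112. Uchl1-202 had an interaction of 2.39 ± 0.05 (adjusted p = 6.16e-13), since it rose in cerebellum and had a log2 value of -0.16 in FC, and Ppp1r1b-202 of -2.99 ± 0.09 (adjusted p = 1.81e-11), since it rose in FC and was at 118 to 133 against 60.1 to 69.3 CPM in cerebellum. Gpc5-204 had 3.32 ± 0.24 (adjusted p = 2.89e-07). Ube2m-205, from a gene for a NEDD8-conjugating enzyme, averaged 54.9 and 42.6 CPM in FC and 40.8 and 71.3 CPM in cerebellum (1.24 ± 0.10, adjusted p = 1.08e-06). Prpf38b-202, from a splicing factor gene, averaged 1.14 and 1.93 CPM in FC and 3.26 and 1.16 CPM in cerebellum (-2.18 ± 0.26, adjusted p = 4.08e-05), and Trpm3-211, from an ion channel gene, 0.209 and 2.79 against 2.44 and 1.44 CPM (-4.38 ± 0.55, adjusted p = 6.77e-05).

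Gene lists for the pathways in which retained introns are best known held at most 86 tested transcripts each. Over all transcripts tested, 3.22% were called in FC and 4.76% in cerebellum, and over the retained-intron class 1.13% and 2.13%. At such shares 0 calls in a short list is not a result about that list. Of the SR proteins and relatives, 25 retained-intron transcripts were tested in FC and 28 in cerebellum, and in each region a single one, Srsf2-203, was called, upward, beside 2.76% of all transcripts called up in FC and 3.45% in cerebellum. Their medians were 0.04 and -0.33, beside 0.01 over all transcripts in each region. Srsf5-212 was at 38.9 to 40.8 against 44.7 to 50.4 CPM in FC (log2 0.17, adjusted p = 0.0282) and Srsf3-204 at 10.1 to 12.6 against 6.78 to 7.35 CPM in cerebellum (log2 -0.69 ± 0.11, adjusted p = 0.00417), both short of the call.

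Of the CLK and SR protein kinases, which phosphorylate SR proteins, edgeR called 0 of 26 in FC and 0 of 26 in cerebellum, with 2 and 5 at an unadjusted p under 0.05 and 0 by DESeq2 in each. Clk1-204, with the intron for which this gene is known, was at 9.56 to 10.5 against 9.39 to 10.8 CPM in FC, overlapping, and at 12.7 to 14.0 against 8.75 to 10.7 CPM in cerebellum (log2 -0.41 ± 0.10, adjusted p = 0.0267). Of the hnRNPs and PTB proteins edgeR called 0 of 24 and 0 of 28, with 3 and 6 at an unadjusted p under 0.05 and 0 and 3 by DESeq2, and medians of 0.01 and -0.40. For genes with known detained or autoregulatory introns, several of which, such as Clk1 and Tra2a, are also in the lists above, it called 0 of 23 and 0 of 25, with 1 and 7 at an unadjusted p under 0.05, 0 by DESeq2 in each and medians of -0.06 and -0.17. Ogt-204, from the gene for O-GlcNAc transferase, was at 16.1 to 19.4 against 12.2 to 12.9 CPM in cerebellum (log2 -0.47 ± 0.09, adjusted p = 0.00896), under the 2-fold limit.

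Of the spliceosome and accessory factors edgeR called 0 of 72 in FC, with 13 at an unadjusted p under 0.05 and 0 by DESeq2, and in cerebellum 0 up and 3 down of 86, where 23 had an unadjusted p under 0.05 and DESeq2 called 5 down. The background of downward calls there is the 1.31% of all transcripts given above. The medians were -0.13 and -0.48. The 3 were Prpf38b-202 (log2 -1.49 ± 0.20, adjusted p = 0.00163), Rbm5-224, at 0.474 to 1.58 CPM in Cere Ctrl and 0 in Upf3b-KO, and a transcript of Acin1, at a mean of 0.394 CPM in Ctrl and 0 in Upf3b-KO. Rbm5-219, which has a dEJ, was at 25.4, 27.3, 26.5 and 27.4 CPM in FC Ctrl and at 14.9, 14.7, 15.8 and 13.6 CPM in FC Upf3b-KO (log2 -0.92 ± 0.06, adjusted p = 2.86e-05), and in cerebellum at 24.2 to 27.5 against 11.9 to 14.7 CPM (log2 -0.98 ± 0.09, adjusted p = 0.000327), lower in each Upf3b-KO library than in any Ctrl library yet under the 2-fold limit. Rsrp1-204, also with a dEJ, was at 83.6 to 84.2 against 100 to 106 CPM in FC (log2 0.22 ± 0.02, adjusted p = 0.00024).

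NMD and exon junction complex factors had 8 and 10 tested transcripts, of which edgeR and DESeq2 called 0 in each region (1 and 2 at an unadjusted p under 0.05), with medians of -0.03 and -0.61. Known NMD targets had 18 and 21, again with 0 calls by either tool (1 and 2 at an unadjusted p under 0.05) and medians of 0.10 and 0.06. Neuronal genes with intron retention under PTBP1 had 1 and 2 tested, with 0 calls by either tool and 0 at an unadjusted p under 0.05. Ribosomal protein genes had 46 and 48, with 0 calls by edgeR, 1 in each region by DESeq2, 3 in each at an unadjusted p under 0.05, and medians of 0.06 in both. Of the synaptic genes edgeR called 0 of 30 in FC, with 7 at an unadjusted p under 0.05 and 1 by DESeq2, and 3 down of 41 in cerebellum, beside the same 1.31% of all transcripts, with 13 at an unadjusted p under 0.05, 8 down by DESeq2 and a median of -0.68. The 3 were Gria2-204, Snap25-203 at 10.5 to 14.0 against 4.22 to 5.26 CPM (log2 -1.26 ± 0.15, adjusted p = 0.00106), and Scn2a-206, from a sodium channel gene, at 4.30 to 5.36 against 1.18 to 1.87 CPM (log2 -1.59 ± 0.23, adjusted p = 0.00232).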

How the data were processed

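RNA of mouse frontal cortex and cerebellum was depleted of ribosomal RNA, made into libraries with the SMART-Seq v4 PLUS kit and sequenced paired-end. Per the labels and the study's methods, the authors aligned reads to GRCm39 with STAR 2.5.2b and deposited RSEM expected counts per Ensembl transcript, 1 table per region. RSEM divides a read among overlapping transcripts, so a row with few bases of its own is an estimate. The methods name an Ensembl release for the alignment, and the strand setting of the counting is not given in the sources used here. Transcript types came from another release, GENCODE vM39, which matched 141102 of 142435 rows and left out 1333.

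Expected counts were rounded. Transcripts were tested with edgeR 4.0.16 (filterByExpr at a minimum count of 10, TMM, quasi-likelihood, Benjamini-Hochberg over all rows tested), usage with diffSpliceDGE on counts summed per gene and transcript type. CPM used the total of each library. A call needed an adjusted p under 0.01 and more than 2-fold, or for usage an adjusted p under 0.05. limma 3.58.1, DESeq2 1.42.0, RLE scaling, no filter and left-out libraries were alternatives. Named transcripts were those with the smallest adjusted p among calls whose groups did not overlap, 8 per direction and genotype comparison, 5 per direction between regions and 3 for the interaction, with 6 and 3 genes for usage. The edgeR transcript and usage fits were checked on simulated counts, where 200 of 200 changed features were recovered in each fit. The changed features in that simulation were abundant ones, moved well beyond the 2-fold limit, with a low spread set equal for all features. It therefore does not show how well changes near 2-fold or at low counts are recovered. Unchanged retained-intron features called there numbered 8 for FC usage, 6 for cerebellar usage and 16 for usage between regions, and 0 to 2 unchanged transcripts were called per transcript fit. The study describes 4 Upf3b-null and 4 littermate Ctrl mice, which matches 4 libraries per group, so the regions share animals. The labels do not say which libraries came from 1 animal, and animal was not a term in the fits. The members and gene lists were chosen with earlier results of these data known. Results for some transcripts are not reported here.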

Additional observations from a re-analysis of the deposited data

Results flagged for a closer look

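Cere Upf3b-KO library 1, with 64981 counts, stood apart from the other 3 libraries of its group in both shares: 6.84% of counts on retained-intron transcripts and 6.79% on nonsense_mediated_decay transcripts, against protein_coding counts. Its gap to the nearest library took 0.990 and 0.987 of the range of the group, above Dixon's 95% critical value for 4 samples. A pair of levels in FC Ctrl stood apart in the same way, Mast4-210 at 0.896 CPM and Slc9a7-203 at 0.660 CPM. In all 4 of 56 groups were set apart, where chance gives about 1 in 20.

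The genotype effect differed between cerebellum and FC, by the interaction term of edgeR's quasi-likelihood test, for 9 named transcripts. The log2 effect in cerebellum minus that in FC was 2.39 for Uchl1-202, -2.99 for Ppp1r1b-202, 3.32 for Gpc5-204, 1.24 for Ube2m-205, 2.69 for Ptger3-203, -2.18 for Prpf38b-202, -4.38 for Trpm3-211 and -1.74 for Gas7-208. For Uggt2-208, at 0 in all FC Upf3b-KO libraries and at 0.780, 1.33 and 2.35 CPM in Cere Upf3b-KO, the adjusted p of the interaction was 2.79e-05.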

How the results depend on the processing

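With RLE scaling the counts of calls stayed within 1.5 times of those given. With an adjusted p under 0.05 and no fold limit they were 285 in FC, 635 in cerebellum, 1304 between Ctrl regions and 257 for the interaction, with DESeq2 224, 541, 997 and 218, and without the filter on low counts 33, 79, 339 and 37. Leaving out a library gave 34 to 43, 68 to 92, 375 to 411 and 43 to 57. With Cere Upf3b-KO library 1 the counts were 50 in cerebellum and 34 for the interaction. Among transcripts averaging at least 1 CPM, chosen after seeing the data, 48 were called in FC and 126 in cerebellum. For usage, a share change of at least 10 points left 27 genes in FC, 26 in cerebellum and 65 between regions, a limma test of log ratios called 36 in FC, and leaving out a library gave 42 to 55, 51 to 71 and 225 to 250.

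The replicate numbers did not pair the libraries, since same-numbered libraries deviated together with correlations from -0.0134 to 0.0126. With the replicate block the counts were 17 in FC, 12 in cerebellum, 190 between regions and 37 for the interaction, and 40 for cerebellar usage. Of the named transcript results 36 kept and 12 lost their call under the block, 43 and 5 without the filter, and 381 and 29 over the left-out libraries. None changed direction in these fits. The cause of these shifts was not tested.

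The FC share difference was 0.248 points per length and turned to -0.102 by gene medians, with 0.0498 to 0.0640 when a library was left out. The cerebellar difference was -0.116 per length, -0.0922 over all retained-intron and protein_coding transcripts, -0.0458 for whole introns, -0.229 by gene medians and, reversed, 0.826 with Cere Upf3b-KO library 1, with -0.159 to -0.134 over left-out libraries. Between Ctrl regions it was 0.218 without the 20 most abundant transcripts and 0.0999 for whole introns (0.179 to 0.203 over left-out libraries). Between Upf3b-KO regions it was -0.195 per length and reversed to 0.0260 over all such transcripts, 0.0599 by gene medians and 0.956 with Cere Upf3b-KO library 1 (-0.0249 to -0.00480). The gap between stop groups ranged from 0.213 to 0.235 in FC and from 0.276 to 0.331 in cerebellum over left-out libraries, a check added after seeing the data. Depth limits transcripts under about 1 CPM, and reads shared with overlapping transcripts limit the others.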
